A study of Mus musculus with 10 samples.

Results

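The genes described here are 10 transcription factor genes that direct blood progenitors toward mast cells and neighbouring lineages: Gata1, Gata2, Mitf, Tal1, Lmo2, Runx1, Spi1, Cebpa, Cebpb and Meis1. They were chosen by mouse gene symbol and not by a cut on a measured value, but with earlier results of these data known. All 10 were found among the 47311 genes summed from the deposited transcript tables, and all 10 passed the filter on low counts that left 17810 genes to test. In these cells 9 of the 10 genes were expressed at mean levels from 21.0 to 1206 TPM (a transcript's share of all transcripts in a library, corrected for its length). Cebpa, at a mean of 0.424 TPM, was the exception. It was also the only 1 of the 10 that passed the test between full-length ASXL2 and the empty vector, where 5.07% of all genes passed. The same held between the pooled ASXL2 mutants and the empty vector, where 10.8% of all genes passed. Neither call held when batch was left out of the fit, and the number passing changed with other settings.

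GATA2 maintains early progenitors and mast cell precursors, and together with MITF it switches on mast cell genes such as the granule proteases and the IgE receptor. GATA1 acts at erythroid, megakaryocyte and mast cell genes, often in a complex with TAL1, LMO2 and LDB1. PU.1, the product of Spi1, and C/EBPα drive granulocytes and monocytes, and in mouse progenitors C/EBPα and MITF are known to oppose each other in the choice between basophil and mast cell. RUNX1 and MEIS1 are factors of stem and early progenitor cells.

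The libraries hold polyA RNA of mouse marrow cells that lacked lineage markers and carried Kit. The groups over-expressed full-length ASXL2 (labelled WT), the labelled mutants 1, 2 or 3 of Asxl2, or carried the empty vector. Each group had 2 libraries, and the mutants were also pooled into a class of 6. Cells of all groups were grown with serum, IL3, IL6 and SCF and sorted for GFP before expansion. ASXL2 is a cofactor of BAP1, an enzyme that takes ubiquitin off histone H2A. The labels give neither the change in each mutant nor the strain and age of the mice, and they leave unsaid whether a group's 2 libraries come from different cultures or animals. What the p-values weigh is therefore the variation among these libraries, possibly technical.

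Libraries held between 52422686 and 79320702 estimated counts. The over-expressed gene itself lay between 374 and 1045 TPM in the 8 construct libraries and between 28.7 and 30.1 TPM in the empty vector libraries. The names under which 4 mutant libraries were deposited carry another mutant number than their labels, and 2 of these (mutant 1 replicate 2 and mutant 3 replicate 1) also another batch. Groups here follow the labels. Batch follows the deposited names, as was set when these genes were chosen. The main component of log2 CPM (CPM being counts scaled to library size), with 41.2% of the variance, separated 10 of 10 libraries by that batch and 8 of 10 by the label's batch. All 10 mast cell and basophil markers had a mean of at least 1 TPM, and their sum lay between 56408 and 68732 TPM. Of the progenitor markers Cd34 had between 198 and 333 TPM, while Flt3 did not pass 0.0277 TPM in any library. The cells labelled as progenitors thus carried all the listed mast cell markers at the time of RNA isolation.

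The factors differed widely in level. Gata2 was highest with a mean of 1206 TPM over the 10 libraries. Tal1 followed with 231 TPM, Gata1 with 184 TPM, Runx1 with 152 TPM and Spi1 with 99.8 TPM. Each of these 5 genes was above the next lower gene in 10 of 10 libraries, although the ranges of Tal1 and Gata1, and those of Gata1 and Runx1, overlapped across libraries. Mitf (38.8 TPM) and Meis1 (36.2 TPM) did not separate, since Mitf was the higher in 8 of 10 libraries. Lmo2 (22.5 TPM) and Cebpb (21.0 TPM) did not separate either, with Lmo2 the higher in 6 of 10. Cebpa was last in 10 of 10 libraries.

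**Figure D1:**
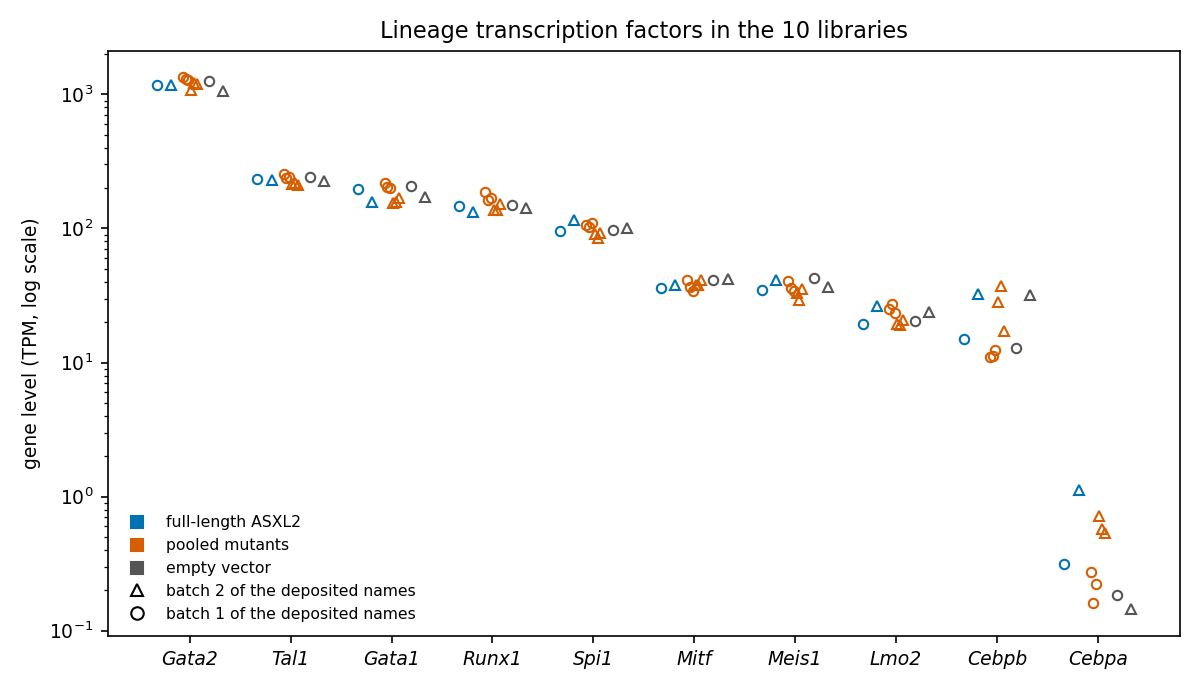
Gene level in TPM (log axis) of the 10 transcription factors in each of the 10 libraries, ordered by mean level. Colours give full-length ASXL2, the pooled mutants and the empty vector, and triangles and circles give batch 2 and batch 1 of the deposited names. Gata2 lies near 1206 TPM and Cebpa near 0.424 TPM, and for Cebpb the triangles lie above the circles.

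The test between classes asked whether full-length or mutant ASXL2 shifted these factors. It was edgeR's quasi-likelihood test, blocked by that batch, with Benjamini-Hochberg adjustment over all genes tested and a threshold of 0.05. In bulk RNA, fewer cells of a type and less RNA per cell cannot be told apart. Against the empty vector, full-length ASXL2 passed for 1 of the 10 genes, where 5.07% of all genes passed. The pooled mutants passed for 1 of the 10, where 10.8% of all genes passed. The median log2 fold change over the 10 genes was 0.05 in full-length ASXL2 and 0.08 in the mutants, beside -0.019 and -0.0058 over all genes tested. Both comparisons share the 2 empty vector libraries. For the 8 genes other than Cebpa and Cebpb, the 95% intervals reached no lower than 0.829-fold and no higher than 1.26-fold in full-length ASXL2, and they lay between 0.835-fold and 1.28-fold in the mutants. For these genes a change of 1.5-fold or more thus lay outside the intervals, while Cebpb was measured far less closely.

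**Figure D2:**
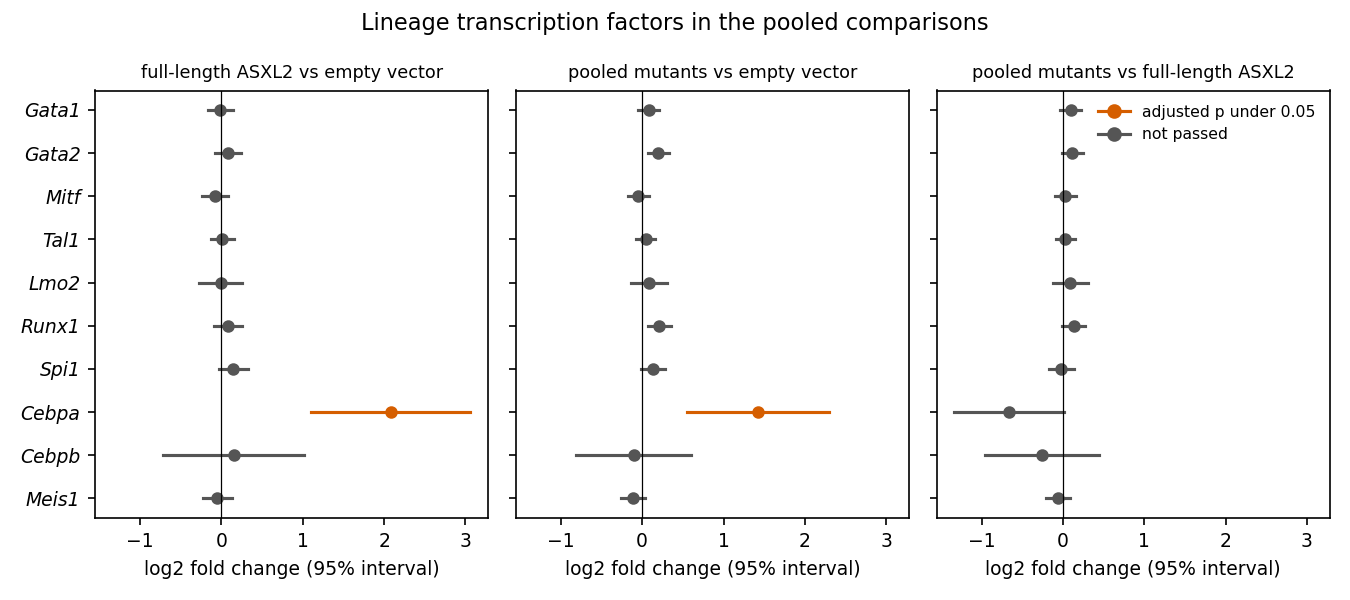
Log2 fold change with its 95% interval (x axis) for each of the 10 genes (y axis) in 3 comparisons. Cebpa passed in the first and the second panel, at 2.08 and 1.42, and no gene passed in the third.

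Between the pooled mutants and full-length ASXL2, edgeR passed 0 of the 10 genes, where 0.399% of all genes passed. An unadjusted p under 0.05 was met by 0 of the 10, beside 2003 of the 17810 genes tested. DESeq2 and limma also passed 0. For the 8 genes other than the C/EBP genes the intervals of this difference lay between 0.866-fold and 1.24-fold. Among the 3 mutants by label, edgeR passed 0 of the 10 genes and DESeq2 0, the lowest unadjusted edgeR p being 0.134, for Gata2. Over all genes edgeR passed 0%, with 779 at an unadjusted p under 0.05, and DESeq2 passed 0.326%. Both mutant 1 libraries are in batch 1 of the deposited names and both mutant 3 libraries in batch 2. Their difference therefore rests on the batch shift seen in other groups. With 4 mutant libraries named for another mutant, the labelled groups may also mix mutants. These tests thus cannot show that the mutants were alike.

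Cebpa (ENSMUSG00000034957, chr7:35119293-35121928, plus strand) encodes C/EBPα. It had 49 and 137 estimated counts in the full-length libraries. The mutant libraries had 33 and 17 counts (mutant 1), 23 and 94 counts (mutant 2), and 99 and 76 counts (mutant 3), against 14 and 20 counts in the empty vector libraries. The scaled levels were 0.616 and 2.04 CPM in full-length ASXL2, from 0.270 to 1.57 CPM with a median of 0.732 CPM in the mutants, and 0.264 and 0.292 CPM in the empty vector. Both full-length libraries thus lay above both empty vector libraries, while mutant 1 replicate 2 lay between them.

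Full-length ASXL2 raised Cebpa by 2.08 ± 0.44 log2 units (SE, edgeR adjusted p = 0.0220), and the mutants raised it by 1.42 ± 0.40 (adjusted p = 0.0437). Within batch 2 the difference on log2(CPM + 0.1) was 2.45 for full-length ASXL2 and 1.79 for the mutants, with 3 of 3 mutant libraries above the empty vector. Within batch 1 it was 0.98 for full-length ASXL2 and 0.41 for the mutants, again with 3 of 3 above. The change was therefore in the same direction in both batches and larger in batch 2, but the difference between batches did not pass (adjusted p = 0.892 for full-length ASXL2 and 0.471 for the mutants, edgeR). With 1 full-length and 1 empty vector library per batch, the spread in that test comes from the mutant libraries alone. Mutants and full-length ASXL2 did not separate for this gene, at -0.66 ± 0.31 (SE, adjusted p = 0.463, edgeR), an interval from 0.397-fold to 1.01-fold.

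The Cebpa calls rest on few counts and on single libraries. Without the replicate block 0 of the 10 genes passed in either comparison, where 0.752% of all genes passed in full-length ASXL2 and 1.75% in the mutants. The Cebpa values there were 2.24 and 1.58 (edgeR adjusted p = 0.467 and 0.505), and with the label's batch the adjusted p was 0.487 and 0.457. Without empty vector replicate 2 they fell to 1.24 and 0.57 (adjusted p = 0.180 and 0.503, edgeR). The call in full-length ASXL2 was also lost without its replicate 1 (adjusted p = 0.0614) or its replicate 2 (0.164), and the call in the mutants was lost on leaving out any library except empty vector replicate 1 or mutant 1 replicate 2, at adjusted p from 0.0513 to 0.503 (edgeR). Under the filter of 1 CPM in 4 libraries and under the minimum of 1 TPM in 2 libraries Cebpa was not tested.

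Most of the listed monocyte and neutrophil markers were low, with means under 1 TPM. Of the 6 monocyte and macrophage markers 3 had a mean of at least 1 TPM, and their sum was 13.8 to 27.9 TPM in full-length ASXL2, 12.6 to 23.4 TPM in the mutants and 13.5 to 15.1 TPM in the empty vector. It was 13.1 to 27.9 TPM in batch 2 and 12.6 to 14.7 TPM in batch 1. The defining marker Csf1r, the M-CSF receptor, did not pass 0.0998 TPM in any library. Of the 7 neutrophil markers 1, Prtn3, had a mean of at least 1 TPM, and their sum was 0.994 to 1.56 TPM in full-length ASXL2, 0.644 to 7.45 TPM in the mutants (at most 0.968 TPM without mutant 1 replicate 1) and 0.462 to 0.940 TPM in the empty vector, with Elane, neutrophil elastase, at no more than 0.165 TPM. Ctsg, a granule protease of neutrophils and mast cells that is not among those 7, had 26.9 and 296 TPM in full-length ASXL2, 5.05 to 403 TPM in the mutants, and 66.5 and 384 TPM in the empty vector. It was higher in batch 2 by 4.09 on the log2 scale (adjusted p = 0.0011, edgeR). The sum of the 6 stem and progenitor markers was 236 to 275 TPM in full-length ASXL2 and 209 to 284 TPM in the mutants, below the 325 to 346 TPM in the empty vector. That sum was nearly all Cd34 (mean 254 TPM), beside a mean of 9.18 TPM for Mecom. Hlf also lay lower in the construct libraries, Mecom overlapped, and Procr (mean 1.37 TPM) lay higher. These 6 markers thus did not move together. The part of all these markers in the Cebpa result was not tested.

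Cebpb (ENSMUSG00000056501, chr2:167688915-167690418, plus strand) encodes C/EBPβ, which acts in emergency granulopoiesis and in macrophages. It divided the libraries by batch rather than by construct. In batch 2 it had 33.1 CPM in full-length ASXL2, 33.3, 46.0 and 19.0 CPM in the mutants and 35.0 CPM in the empty vector. In batch 1 it had 16.1 CPM in full-length ASXL2, 10.7, 11.1 and 12.6 CPM in the mutants and 12.4 CPM in the empty vector. The batches did not overlap, and the log2 difference of batch 2 from batch 1 was 1.41 ± 0.24 (SE, adjusted p = 0.0021, edgeR). The construct comparisons gave a log2 fold change of 0.15 in full-length ASXL2 and -0.10 in the mutants, with intervals from 0.610-fold to 2.02-fold and from 0.570-fold to 1.52-fold (adjusted p = 0.882 and 0.873, edgeR). Tmem189, annotated antisense over Cebpb, had 44.6 to 53.1 TPM, and since no strand setting is given, reads of the pair cannot be told apart where they overlap.

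**Figure D3:**
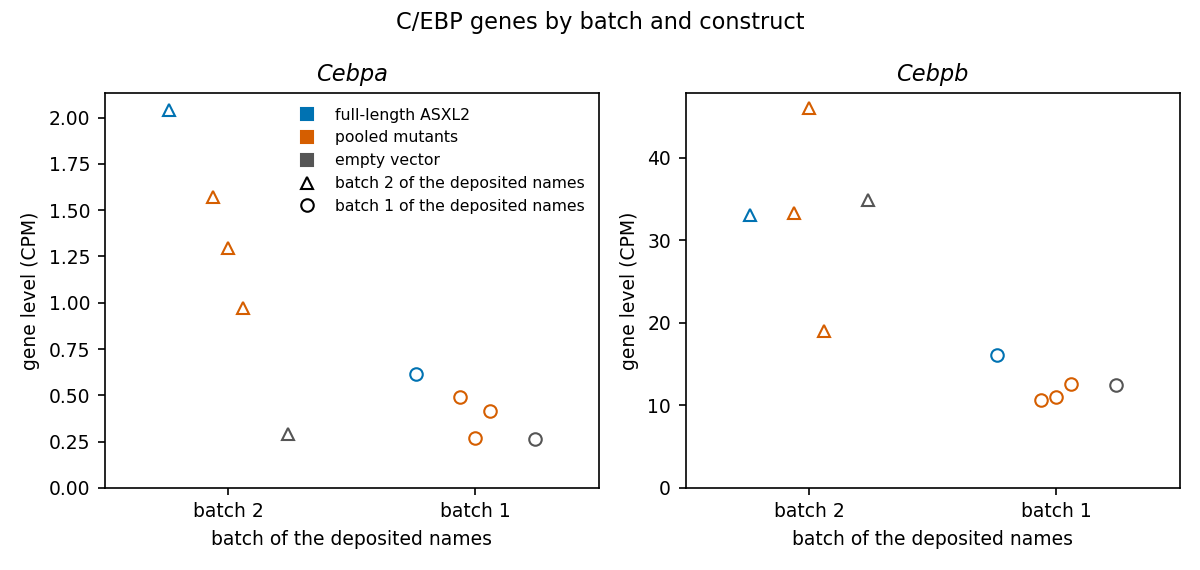
Level in CPM (y axis, from 0) of Cebpa and Cebpb in each library, batch 2 at left and batch 1 at right within a panel, with the constructs as colours. For Cebpa the full-length and mutant libraries of batch 2 lie from 0.973 to 2.04 CPM and its empty vector library at 0.292 CPM, while for Cebpb all batch 2 libraries lie above all batch 1 libraries.

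The promoters of both C/EBP genes are shown because they are the 2 genes with the largest differences. Each runs from 250 bases before to 50 bases after the annotated start (RefSeq, GRCm38.p6), 5′ to 3′, and capitals mark matches, on either strand, to the motifs searched.
Cebpa promoter (chr7:35119043-35119342, plus strand): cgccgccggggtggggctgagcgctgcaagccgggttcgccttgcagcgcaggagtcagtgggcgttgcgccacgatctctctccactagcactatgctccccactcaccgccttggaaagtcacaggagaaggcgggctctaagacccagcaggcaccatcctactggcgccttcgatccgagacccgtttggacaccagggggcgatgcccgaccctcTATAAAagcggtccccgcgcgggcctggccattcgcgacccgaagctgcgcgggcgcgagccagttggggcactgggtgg
Cebpb promoter (chr2:167688665-167688964, plus strand): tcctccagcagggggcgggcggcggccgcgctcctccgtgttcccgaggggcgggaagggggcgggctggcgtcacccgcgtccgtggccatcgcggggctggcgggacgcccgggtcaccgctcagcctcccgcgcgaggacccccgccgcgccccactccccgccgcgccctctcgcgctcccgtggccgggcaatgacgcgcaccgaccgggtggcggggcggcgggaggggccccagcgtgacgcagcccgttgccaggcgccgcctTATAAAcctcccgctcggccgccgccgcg
The motifs searched were 6, on both strands of the 13 RefSeq promoters of 8 of the genes: GATAA for GATA factors, TGTGGT for RUNX, TTNCNNNAA for C/EBP, CACGTG for MITF and other E-box factors, TATAAA for the TATA box and GAGGAA for PU.1. In both C/EBP promoters the only match was TATAAA, at position -30 (the match's leading base, counted from the annotated start) in Cebpa and at position 22 in Cebpb. Among 32851 promoters of the same length, 13.6% held TATAAA. Over the 13 promoters, GATAA was in 3 (25.4% of all promoters), TGTGGT in 3 (16.8%), TTNCNNNAA in 3 (36.6%), CACGTG in 1 (7.15%), TATAAA in 3 and GAGGAA in 3 (28.3%).

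Gata2 (ENSMUSG00000015053, chr6:88193891-88207032, plus strand) was the most abundant factor of the set. It had 2122 and 1951 CPM in full-length ASXL2, from 2063 to 2371 CPM with a median of 2203 CPM in the mutants, and 1983 and 1866 CPM in the empty vector. All 6 mutant libraries were above both empty vector libraries, and 3 of 3 were above within each batch. Where classes separate, for Gata2 or any gene below, the share of all genes that do so was not counted. The log2 fold change in the mutants was 0.20 ± 0.06 (SE), which missed the threshold (adjusted p = 0.0563, edgeR), and in full-length ASXL2 it was 0.08 ± 0.07 (adjusted p = 0.600). DESeq2 passed the mutants for this gene (adjusted p = 0.00877), as did edgeR with no filter (0.0439), with the stricter filter (0.0413) or without mutant 2 replicate 2 (0.0458). In TPM the mutants (1074 to 1340) and the empty vector (1255 and 1053) overlapped.

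Gata1 (ENSMUSG00000031162, chrX:7959260-7978071, minus strand) had 200 and 164 CPM in full-length ASXL2, from 184 to 199 CPM with a median of 194 CPM in the mutants, and 185 and 181 CPM in the empty vector. Full-length replicate 2 was the lowest of the 10 libraries and replicate 1 the highest, so its 2 libraries enclosed all others. The log2 fold changes of -0.01 ± 0.07 in full-length ASXL2 and 0.08 ± 0.06 in the mutants did not pass (SE, adjusted p = 0.948 and 0.432, edgeR). The ratio of Gata2 to Gata1 in TPM, which falls as GATA1 replaces GATA2 in erythroid maturation, was 6.02 and 7.44 in full-length ASXL2, from 6.16 to 7.61 in the mutants, and 6.08 and 6.15 in the empty vector. The 6 mutant libraries thus lay above both empty vector libraries, by a margin as small as that between 6.16 and 6.15. Full-length ASXL2 lay on both sides. By batch the ratio was 6.15 to 7.61 in batch 2 (mean 7.05) and 6.02 to 6.41 in batch 1 (mean 6.20). The part of batch or construct in the ratio was not tested.

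Tal1 (ENSMUSG00000028717, chr4:115056426-115071755, plus strand) encodes the basic helix-loop-helix partner of GATA1 in erythroid and mast cells. It had 628 and 618 CPM in full-length ASXL2, from 596 to 677 CPM with a median of 632 CPM in the mutants, and 595 and 643 CPM in the empty vector. Lmo2 (ENSMUSG00000032698, chr2:103957986-103981878, plus strand), whose LIM-only protein bridges TAL1 and GATA factors, had 16.8 and 22.1 CPM, from 18.9 to 22.3 CPM, and 17.3 and 21.8 CPM in full-length ASXL2, the mutants and the empty vector. The classes overlapped for both genes. The log2 fold changes in full-length ASXL2 and in the mutants were 0.01 and 0.04 for Tal1 and -0.01 and 0.09 for Lmo2, with adjusted p from 0.652 to 0.986 (edgeR).

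Runx1 (ENSMUSG00000022952, chr16:92601466-92826149, minus strand) encodes the core binding factor of definitive blood stem cells. It had 402 and 370 CPM in full-length ASXL2, from 394 to 468 CPM with a median of 421 CPM in the mutants, and 362 and 367 CPM in the empty vector. Every construct library lay above both empty vector libraries in CPM. The mutants gave a log2 fold change of 0.21 ± 0.06 (SE, edgeR adjusted p = 0.0618) and full-length ASXL2 0.08 ± 0.08 (adjusted p = 0.643), and neither passed. The mutants passed with DESeq2 (adjusted p = 0.0306), with no filter (0.0482), with the stricter filter (0.0459), without mutant 1 replicate 2 (0.0331) and without the 2 libraries whose name and label give different batches (0.0234). In TPM the classes overlapped.

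Runx1 is transcribed from a distal and a proximal promoter, which give proteins with different first residues and are used to different degrees during blood development. Both are shown because the share of transcripts from each, as for some starts of Gata2 and Mitf, did not overlap between batches. They come from RefSeq (GRCm38.p6), with capitals as above.
Runx1 distal promoter (chr16:92826025-92826324, minus strand): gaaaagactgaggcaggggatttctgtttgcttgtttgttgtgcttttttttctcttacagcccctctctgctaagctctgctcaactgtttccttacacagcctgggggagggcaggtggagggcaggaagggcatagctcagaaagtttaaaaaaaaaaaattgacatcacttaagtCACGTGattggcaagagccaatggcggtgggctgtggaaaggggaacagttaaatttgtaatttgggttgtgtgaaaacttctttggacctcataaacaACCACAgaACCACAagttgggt
Runx1 proximal promoter (chr16:92697280-92697579, minus strand): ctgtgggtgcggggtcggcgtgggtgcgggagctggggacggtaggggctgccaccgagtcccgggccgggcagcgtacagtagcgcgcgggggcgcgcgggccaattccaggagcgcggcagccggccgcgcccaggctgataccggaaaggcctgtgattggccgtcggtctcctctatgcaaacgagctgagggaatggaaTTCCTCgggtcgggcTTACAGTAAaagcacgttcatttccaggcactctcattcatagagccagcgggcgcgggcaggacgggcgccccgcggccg
The distal promoter held CACGTG at position -71 and TGTGGT, the RUNX motif, at positions 29 and 37 from the start. The proximal promoter held a TTNCNNNAA match at position -31 and a GAGGAA match at position -46. Transcripts that start within 2000 bases of the distal start carried 60.7 and 53.3% of Runx1 TPM in full-length ASXL2, from 52.7 to 69.1% in the mutants, and 60.1 and 56.6% in the empty vector. By batch the share was 55.2% ± 2.95 in batch 2 and 63.4% ± 3.92 in batch 1 (SD, n = 5 each), with ranges of 52.7 to 59.8% and 60.1 to 69.1% that did not overlap. The exact two-sided permutation p was 0.00794, the smallest that 5 against 5 libraries can give, and 0.0635 after adjustment over the 8 tests of start use, so it missed the threshold. The shares of construct and empty vector libraries overlapped (59.5% ± 6.02, n = 8, and 58.3% ± 2.47, n = 2, SD; exact permutation p = 0.889).

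**Figure D4:**
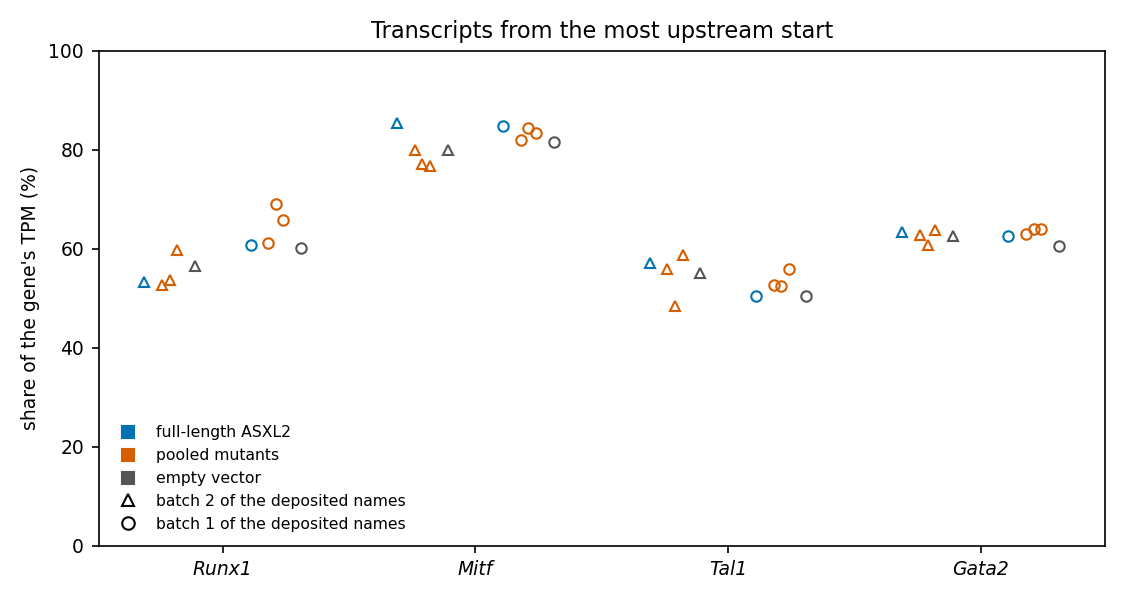
Share of the gene's TPM (%, y axis from 0 to 100) from transcripts at the most upstream start of Runx1, Mitf, Tal1 and Gata2 in each library, with batch 2 (triangles) left of batch 1 (circles) and constructs as colours. Runx1 lies at 52.7 to 59.8% in batch 2 and 60.1 to 69.1% in batch 1, and the other 3 genes overlap between batches.

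Mitf (ENSMUSG00000035158, chr6:97807052-98021349, plus strand) encodes the basic helix-loop-helix factor that mast cells and melanocytes both need. It had 111 and 108 CPM in full-length ASXL2, from 99.7 to 123 CPM with a median of 115 CPM in the mutants, and 109 and 124 CPM in the empty vector. The classes overlapped, and the log2 fold changes of -0.08 ± 0.07 and -0.05 ± 0.06 did not pass (SE, adjusted p = 0.612 and 0.653, edgeR). Mitf has several alternative first exons that different cell types use. Transcripts from the most upstream start carried 76.6 to 85.4% of its TPM and 92.1 to 95.7% of its counts, and those from the most downstream start carried on average 15.8% of its TPM, nearly all in the short transcript Mitf-208 (4.24 to 7.85 TPM). The 2 promoters are given to show how unlike they are, at 62.7% G and C upstream and 40% downstream.
Mitf upstream promoter (chr6:97806808-97807107, plus strand): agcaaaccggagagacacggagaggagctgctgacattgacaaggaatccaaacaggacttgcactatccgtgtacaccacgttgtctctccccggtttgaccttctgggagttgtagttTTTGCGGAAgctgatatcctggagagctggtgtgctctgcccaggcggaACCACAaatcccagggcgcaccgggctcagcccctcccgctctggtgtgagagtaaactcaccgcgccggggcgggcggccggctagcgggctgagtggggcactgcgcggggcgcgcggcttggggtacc
Mitf downstream promoter (chr6:97991533-97991832, plus strand): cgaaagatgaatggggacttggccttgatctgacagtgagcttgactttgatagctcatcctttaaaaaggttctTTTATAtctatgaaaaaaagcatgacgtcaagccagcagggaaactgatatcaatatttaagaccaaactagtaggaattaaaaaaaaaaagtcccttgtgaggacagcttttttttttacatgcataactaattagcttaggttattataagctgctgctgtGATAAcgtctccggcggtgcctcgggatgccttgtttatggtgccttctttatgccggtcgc
The upstream promoter held a TTNCNNNAA match at position -130 and TGTGGT at position -81, and the downstream promoter TATAAA at position -175 and GATAA at position -12. The upstream share was 79.8% ± 3.47 in batch 2 and 83.2% ± 1.37 in batch 1 (SD, n = 5 each), which overlapped (exact permutation p = 0.0794, adjusted 0.237). It was 81.7% ± 3.43 in the 8 construct libraries and 80.7% ± 1.21 in the 2 empty vector libraries (SD, exact permutation p = 0.711).

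The upstream start of Gata2 and Tal1 overlapped between batches and between classes. Transcripts from it carried 60.6 to 64.1% of Gata2 TPM and 48.5 to 58.8% of Tal1 TPM. Of Gata2 counts the upstream start carried 82.1 to 86.4%, the downstream start 8.91 to 11.5% and other transcripts 3.77 to 6.52%. Of Tal1 counts the upstream start carried 58.8 to 67.2%. The exact permutation p was 0.754 for Gata2 and 0.198 for Tal1 between batches, and 0.0889 and 0.711 between construct and empty vector libraries, the design of 8 against 2 libraries allowing no p under 0.0222. With adjustment over 8 tests no gene alone could pass the threshold in either design, so these tests cannot show that start use was alike. Other starts were not tested, but some did not overlap between batches. The share of starts over all genes that do so was not counted, and 52.4% of all genes passed between batches in level (edgeR). The downstream start of Gata2 carried 23.0 to 29.6% of its TPM in batch 2 and 20.6 to 22.6% in batch 1, and its remaining transcripts 9.29 to 13.2% in batch 2 and 15.3 to 16.8% in batch 1. The middle start of Mitf carried 2.42 to 3.03% in batch 2 and 0.810 to 2.13% in batch 1.

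Spi1 (ENSMUSG00000002111, chr2:91082390-91115756, plus strand) encodes PU.1, the ETS factor of myeloid and mast cell precursors. It had 98.0 and 120 CPM in full-length ASXL2, from 99.4 to 119 CPM with a median of 107 CPM in the mutants, and 87.6 and 109 CPM in the empty vector. Full-length ASXL2 was above the empty vector within each batch, by 0.16 and 0.14 on the log2 scale in batches 1 and 2, and the mutants by 0.23 and 0.03. The classes still overlapped, and neither difference passed (log2 fold changes 0.15 ± 0.08 and 0.13 ± 0.07, SE, adjusted p = 0.372 and 0.264, edgeR). Meis1 (ENSMUSG00000020160, chr11:18879817-19018985, minus strand), a homeobox factor of stem cells, had 77.1 and 88.0 CPM in full-length ASXL2, from 73.5 to 83.4 CPM with a median of 79.5 CPM in the mutants, and 87.4 and 83.6 CPM in the empty vector. All 6 mutant libraries lay below both empty vector libraries, by margins as small as that between 83.4 and 83.6 CPM. In TPM these classes overlapped. The log2 fold change of -0.12 ± 0.07 in the mutants did not pass (SE, adjusted p = 0.309, edgeR).

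Between batch 2 and batch 1, 4 of the 10 genes passed as higher and 0 as lower, where 52.4% of all genes passed, 26.6% as higher. Besides Cebpb at 1.41 these were Cebpa at 1.49 ± 0.27 (adjusted p = 0.00088), Spi1 at 0.19 ± 0.05 (0.0096) and Mitf at 0.16 ± 0.05 (0.0140; log2, SE, edgeR). For Cebpa the batches overlapped, since the empty vector library of batch 2 had 0.292 CPM. The direction for Spi1 depended on the scale. In TPM the median of all genes shifted between batches by -0.14 on log2(TPM + 1), and Spi1 changed sign to -0.09, Tal1 to -0.14, Lmo2 to -0.07 and Meis1 to -0.10 there, while Gata1 (-0.34, adjusted p = 0.0011, limma) and Runx1 (-0.21, adjusted p = 0.0279) passed as lower. With the label's batch in place of the deposited one, edgeR passed 0 of the 10 genes between batches, and 0 of all genes, 1555 of which had an unadjusted p under 0.05.

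The pattern of each gene over the 10 libraries, after each batch mean was subtracted, was set against 9614 genes of at least 5 CPM as a description. Gata1 and Gata2 were each other's closest member (Pearson r = 0.76), and Meis1 ran opposite to both (r = -0.71 with Gata2, -0.68 with Gata1). Outside the set, the nearest genes were Ppard (0.97) and Tmub1 (0.96) for Gata1, Gpr157 and Aldoa (0.98 each) for Gata2, Lemd3 (0.96) and Ddx59 (0.91) for Tal1, and Ctla2b and Dcaf8 (0.93 each) for Lmo2. They were Tlk1 (0.96) and Dhx32 (0.95) for Runx1, Plod1 and Kctd2 (0.97 each) for Spi1, Dgki (0.94) and Btbd9 (0.92) for Mitf, and Parl (0.96) and Ap1g2 (0.94) for Meis1. For Cebpb they were Zfp219 (0.96) and Samd1 (0.94), and Rapsn (0.95) was among the nearest to Cebpa. The points share the libraries' depth and RNA, and the highest of so many correlations over 10 libraries is high by selection.

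Partners and relatives of the 10 factors were taken from 7 lists of 67 genes, of which 57 passed the filter on low counts. Against the empty vector 5 rose and 1 fell in full-length ASXL2 (10.5%, beside 5.07% of all genes), and 8 rose and 2 fell in the mutants (17.5%, beside 10.8%). Their median log2 fold changes were 0.01 and 0.04. Between the mutants and full-length ASXL2 edgeR passed 0 of 57, and among the 3 mutants 0 of 57. Between batches 18 were higher and 18 lower in batch 2 (63.2%, beside 52.4%).

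The fall of Gfi1 was the partner change that also passed without the replicate block. GFI1 is a zinc finger repressor that opposes PU.1 in granulocyte development. Gfi1 had 5.93 and 3.31 TPM in full-length ASXL2, from 4.12 to 8.79 TPM in the mutants, and 18.6 and 18.7 TPM in the empty vector, so the empty vector lay above all construct libraries. The log2 fold changes were -1.90 ± 0.38 and -1.59 ± 0.28 (SE, adjusted p = 0.0304 and 0.0114, edgeR), and without the block the adjusted p was 0.0462 and 0.0190. In full-length ASXL2 its call was kept in 4 of the 10 fits that leave out 1 library, and in the mutants in 8 of 10, lost without either empty vector library.

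Among GATA cofactors, 2 of 7 rose in full-length ASXL2 and 1 of 7 in the mutants. Klf1, the erythroid Krüppel-like factor, rose by 0.98 and 0.84 on the log2 scale, at 1.21 and 1.11 TPM in full-length ASXL2, 0.845 to 1.21 TPM in the mutants and 0.805 and 0.431 TPM in the empty vector. Gfi1b, the repressor that works with GATA1, rose in full-length ASXL2 by 0.34, and had 0.13 in the mutants (adjusted p = 0.173, edgeR). In the TAL1 and LMO2 list, 1 of 12 rose in full-length ASXL2 and 3 of 12 in the mutants. Tcf4, which encodes an E protein, rose by 0.93 in full-length ASXL2 and by 1.14 in the mutants, and Lyl1, the close relative of Tal1, rose in the mutants by 0.25, as did Tcf12, another E protein gene, by 0.14. Ldb1, the bridge of the complex, had -0.12 and 0.03 and did not pass (adjusted p = 0.337 and 0.762, edgeR).

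In the RUNX list, 0 of 10 passed in full-length ASXL2 and 1 of 10 in the mutants, Ets1, at 0.75, and Cbfb, the non-DNA-binding partner of RUNX1, had 0.01 and -0.09 (adjusted p = 0.972 and 0.400, edgeR). In the PU.1 list, 1 of 6 passed in each, Gfi1. In the MITF list, 0 of 6 and 1 of 6 passed, and the gene in the mutants was Tfeb, a lysosomal relative of Mitf, at 1.44 in the mutants and 1.07 in full-length ASXL2 (adjusted p = 0.0100 and 0.0930). In the C/EBP list, Cebpd rose by 0.73 and 0.77, and Atf4, the stress response factor that pairs with C/EBP proteins, fell by 0.34 in the mutants, which makes 1 of 6 and 2 of 6.

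**Figure D5:**
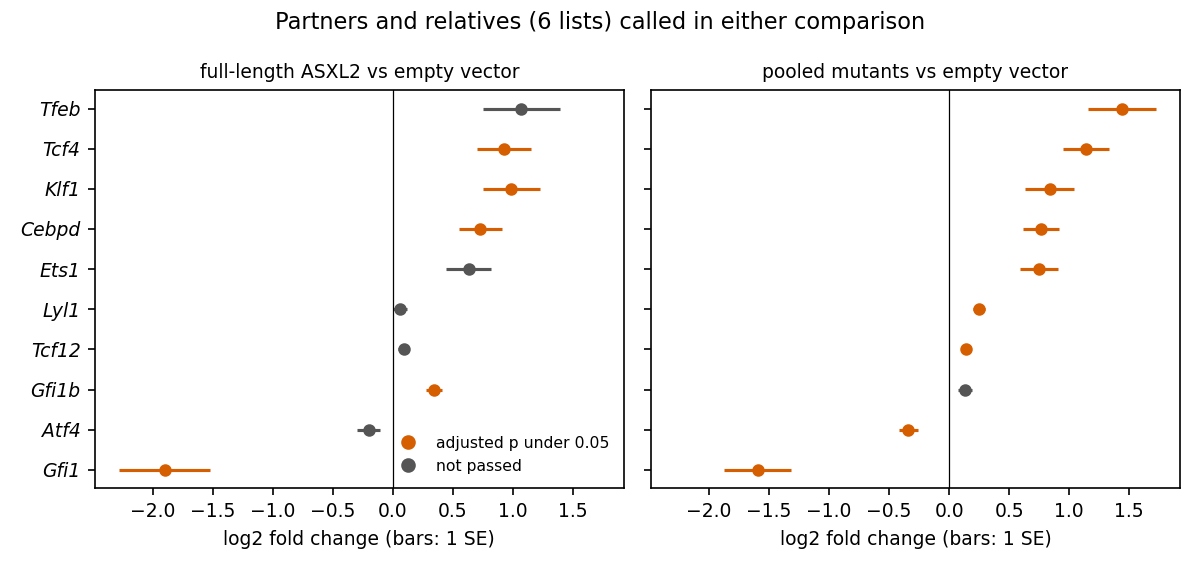
Log2 fold change against the empty vector, with 1 SE on each side (x axis), of 10 partner and relative genes, from 6 of the lists, that passed in full-length ASXL2 (left) or in the mutants (right). Tcf4, Klf1, Cebpd and Gfi1 passed in both panels, and Gfi1, at -1.90 and -1.59, lies farthest below 0.

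Without the replicate block, 1 of the 57 partners passed in each comparison with the empty vector. Of all genes, 0.752% passed there in full-length ASXL2 and 1.75% in the mutants. The counts also rested on single libraries. In each fit whose count follows, the share of all genes that passed fell too, but not always to the same degree. In full-length ASXL2 it was 4.06 to 4.75% in the fits below that leave out a mutant library, beside 5.07% with all libraries. Whether the fall was particular to the partners was not tested. The count of 6 in full-length ASXL2 was 0 without its replicate 2 and 1 without either empty vector library. It was 2 without mutant 2 replicate 1, and 3 without mutant 1 replicate 1, mutant 1 replicate 2 or mutant 3 replicate 2. Without empty vector replicate 1 the count of 10 in the mutants was 1, Tcf4. Of the 10 fits that each leave out 1 library, Klf1 passed in 3 in full-length ASXL2 and 7 in the mutants, Cebpd in 2 and 9, Tcf4 in 4 and 10, Gfi1b in 8 in full-length ASXL2, and Ets1 in 8 and Tcf12 in 0 in the mutants. Several of these genes differed between batches as well, Tfeb by -1.24 and Tcf4 by -1.16 (log2, batch 2 against batch 1).

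Of 58 genes tested in 5 lists of target and lineage genes, 5 passed in full-length ASXL2 (8.62%, beside 5.07% of all genes) and 8 in the mutants (13.8%, beside 10.8%). Of 17 mast cell targets of GATA2 and MITF, 0 passed in full-length ASXL2 and 1 in the mutants, Hdc, the histidine decarboxylase that makes histamine. It had 14.0 and 21.4 TPM in full-length ASXL2, 14.8 to 32.1 TPM in the mutants and 8.70 and 11.9 TPM in the empty vector (log2 fold change 1.14 ± 0.28 in the mutants, SE, adjusted p = 0.0425, edgeR), but it passed in 2 of the 10 fits that leave out 1 library. Of 13 erythroid and megakaryocyte targets, 3 rose in full-length ASXL2 (Epor, Gp9 and Klf1) and 2 in the mutants (Epor and Klf1), with median log2 fold changes of 0.12 and 0.75. Epor, the erythropoietin receptor, had 5.84 and 7.21 TPM in full-length ASXL2, 3.44 to 5.80 TPM in the mutants and 2.63 and 2.27 TPM in the empty vector. It passed in 10 of 10 such fits in full-length ASXL2 and in 9 of 10 in the mutants, and without the block (adjusted p = 0.0191 and 0.0379, edgeR). Erythroid markers did not move together. The sum of 6 of them, Epor among them, was 17.4 to 19.8 TPM in full-length ASXL2 and 24.1 to 25.1 TPM in the empty vector. In the mutants it was 18.2 to 43.6 TPM (at most 26.0 TPM without mutant 1 replicate 1). By mean level the largest part was the alpha globin gene Hba-a1 (17.5 TPM). Hba-a1 had 9.56 and 9.92 TPM in full-length ASXL2, 11.4 to 32.2 TPM in the mutants, and 21.2 and 19.9 TPM in the empty vector. The beta globin gene Hbb-bt, outside that sum, had 60.7 and 120 TPM in full-length ASXL2, 32.3 to 123 TPM in the mutants, and 22.8 and 64.4 TPM in the empty vector, with log2 fold changes of 1.17 and 0.97 that did not pass (the lower adjusted p, in the mutants, was 0.0717, edgeR). Their part in these calls was not tested.

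Of 11 myeloid targets of PU.1 and C/EBP, 1 rose in full-length ASXL2, the monocyte gene Cd14, at 1.04 and 0.720 TPM against 0.224 and 0.191 TPM in the empty vector (log2 fold change 2.08), and 0 passed in the mutants. Of 12 stem and progenitor genes, 1 rose in full-length ASXL2 and 2 rose and 2 fell in the mutants. Procr, the protein C receptor of stem cells, rose by 2.09 and 3.20, and in the mutants Msi2 rose by 0.30, Hlf fell by 1.05 and Cd34 fell by 0.39. Of 5 lymphoid factors, 0 and 1 passed, Il7r at 2.01 in the mutants. Its level was low, at 0.0769 to 0.578 TPM in full-length ASXL2, 0.136 to 1.47 TPM in the mutants and 0.0822 to 0.180 TPM in the empty vector. Of the 10 fits that leave out 1 library, Gp9 passed in 7 and Cd14 in 6 in full-length ASXL2, Procr in 8 in full-length ASXL2 and 10 in the mutants, Cd34 in 4 and Hlf in 8 in the mutants. Msi2 and Il7r lost their calls without empty vector replicate 1. Without the replicate block Procr kept its call in the mutants (adjusted p = 0.0362, edgeR) but not in full-length ASXL2 (0.259). Hdc (0.206), Gp9 (0.149), Cd14 (0.155), Msi2 (0.440), Hlf (0.135), Cd34 (0.592) and Il7r (0.508) did not pass there.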

How the data were processed

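The 10 genes and all lists were chosen with earlier results of these data known. Per the file headers, the deposited tables give an estimated count and a TPM value for each of 115088 transcripts per library. The submitters' processing notes name kallisto, DESeq2 and mm10, with roles and versions not given in the sources used here. Transcripts were summed per gene through GENCODE M21 (99.2% matched), and the deposited estimated counts were rounded. Sequences come from RefSeq (GRCm38.p6), which gave promoters of 8 of the 10 genes.

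The main test was edgeR 4.0.16 (R 4.3.3), quasi-likelihood and robust, after TMM scaling and edgeR's default filter (10 counts, smallest class of 2). The 10 libraries entered 1 fit with 3 classes, blocked by the batch in the deposited names. Mutants by label entered a fit with 5 groups. Replicate numbers are batches by the labels and so pair the groups, and deviations from group means correlated between -0.145 and 0.578 in the 10 pairs of groups, over 0.1 in 3. Alternatives were DESeq2 1.42.0, DESeq2's scaling within edgeR, other filters (none, or 1 CPM in 4 libraries), no replicate block, the label's batch, limma 3.58.1 on log2(TPM + 1) or log2(TPM + 0.1) with a minimum of 1 TPM in 2 libraries, only the classes compared, and leaving out libraries. Fold changes on the TPM scale understate low genes. CPM are TMM-scaled, intervals cover 95%, and within-batch differences use log2(CPM + 0.1). The rule for names was the 2 genes with the highest r per factor, and in each list at most 4 genes with the smallest p in a comparison, to which Cbfb was added after its values were seen. Some results on single genes are not reported here. The programs were tested on simulated data. Python 3.11.15 with pandas 2.3.3 and numpy 2.4.6 made the tables, and matplotlib 3.10.9 the figures.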

Additional observations from a re-analysis of the deposited data

Results flagged for a closer look

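The 10 factors were examined in the pooled mutants and within each batch, and the 57 tested partner genes in the pooled mutants, for a library far from the others, a rule that chance alone meets in about 1 of 20 groups. No library stood apart for the 10 factors, and 3 partner genes were marked. Hoxa9, a homeobox partner of MEIS1 in stem cells, had 8.05 TPM in mutant 3 replicate 2, against 0 to 0.0211 TPM in the other 5 mutant libraries. Hoxa7 had 4.03 TPM in the same library, against 0.00772 to 0.0336 TPM in the others. Tcf3 had 65.4 TPM in mutant 1 replicate 1, against 57.2 to 60.0 TPM in the others. These genes were singled out after their values were seen, and the cause was not tested.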

How the results depend on the processing

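With DESeq2's size factors, 1 of the 10 factors passed in each comparison with the empty vector, as in the fit reported. The share of all genes that passed changed as well. In full-length ASXL2 it was 5.07% in that fit, 7.63% with the stricter filter, 0.752% without the block and 0.724% with the block by label. It was 1.25 and 1.58% on the TPM scales and 2.54% with only the libraries compared. In the mutants the shares in the same order were 10.8, 15.9, 1.75, 1.88, 3.94, 4.38 and 10.9%. There DESeq2 gave 15.1%, no filter 6.19% and leaving out the 2 libraries of discordant batch 9.38%. The count for full-length ASXL2, 1 in the fit reported, was 0 with the stricter filter, without the replicate block, with the replicate block by label, on either TPM scale and with only the libraries compared, and 0 to 1 on leaving out a library. For the mutants it was 3 with DESeq2 or no filter, 2 with the stricter filter or without the 2 libraries of discordant batch, 0 without the replicate block, with the replicate block by label, on either TPM scale and with only the libraries compared, and 0 to 2 on leaving out a library. The count of 4 between batches was 0 with the replicate block by label and 4 to 5 on leaving out a library. Of the mutants against full-length ASXL2 and among mutants, 0 passed under all of these settings. The cause of these changes was not tested, except that fewer genes (Cebpa among the untested) or fewer libraries enter some fits.

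Signs turned for values near 0. On log2(TPM + 1) and log2(TPM + 0.1), full-length ASXL2 against the empty vector gave -0.023 and -0.023 for Tal1, 0.042 and 0.044 for Lmo2, and -0.062 and -0.062 for Runx1. The mutants against the empty vector gave -0.040 and -0.041 for Gata1, -0.028 and -0.028 for Tal1, and -0.021 and -0.021 for Spi1, and against full-length ASXL2 -0.0050 and -0.0051 for Tal1 and -0.027 and -0.028 for Lmo2. Between batches Tal1 gave -0.14 and -0.14, Lmo2 -0.073 and -0.076, Spi1 -0.092 and -0.093, and Meis1 -0.10 and -0.10. Without a filter Lmo2 was 0.0024 in full-length ASXL2. With the replicate block by label Cebpb was 0.0086 in the mutants and Tal1 -0.0096 between batches, and with the stricter filter Meis1 was -0.0052 between batches.

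On leaving out a library, full-length ASXL2 against the empty vector gave -0.15 to 0.097 for Gata1, -0.21 to 0.027 for Mitf, -0.049 to 0.058 for Tal1, -0.18 to 0.14 for Lmo2, 1.24 to 2.79 for Cebpa, -0.095 to 0.38 for Cebpb and -0.15 to 0.028 for Meis1. The mutants against the empty vector gave -0.031 to 0.22 for Lmo2, 0.57 to 2.12 for Cebpa, -0.29 to 0.021 for Cebpb, 0.16 to 0.23 for Gata2 and 0.16 to 0.28 for Runx1. The mutants against full-length ASXL2 gave -0.029 to 0.22 for Gata1, -0.089 to 0.14 for Mitf, -0.024 to 0.080 for Tal1, -0.065 to 0.25 for Lmo2, -0.087 to 0.045 for Spi1 and -0.15 to 0.024 for Meis1. Between batches Gata2 ranged from -0.057 to 0.0027 and Lmo2 from 0.10 to 0.20. The same settings were run for the partner lists after their values were seen. The partner count of 6 in full-length ASXL2 was 3 with no filter, 2 with only the libraries compared, 0 on either TPM scale and 1 with the replicate block by label, and the count of 10 in the mutants was 6 on either TPM scale and 1 with the replicate block by label. Depth limits Cebpa, whose libraries held 14 to 137 counts.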
